A study of Mus musculus with 56 samples.

Results

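The comparison described here set cortical against medullary thymic epithelial cells (cTECs and mTECs) in late gestation, and its question was how far the identities of the cell types remained apart at that stage. Its members were the samples whose time point was labelled D-2, 3 of cTECs and 3 of mTECs, which make 6 of the 56 samples of the series. Both cell types were sorted from thymi of B6.SJL females (B.6SJL-Ptprca Pep3b/BoyJ-CD45.1) that had been mated with BALB/cJ males and were at day 18 of gestation. Epithelial cells were EpCAM+ CD45-, and the lectin UEA1 separated mTECs, which bind it, from cTECs, which do not. Thymi were digested with papain, collagenase IV and DNase, EpCAM+ cells were enriched on magnetic beads, and each library was made from poly-A RNA of sorted cells from 1 mouse. The titles number the samples 1, 3 and 4 in each cell type, and the labels do not say whether a cTEC and an mTEC sample with the same number came from the same female. The groups used for comparison were age-matched females of the same strain that were not pregnant (NPC), and mothers on the day of parturition (D0) or 3, 6 or 12 days later, whose pups were removed at birth, each group with 3 samples of each cell type.

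Cortical and medullary epithelial cells divide the work of making a T cell repertoire. cTECs attract and commit precursors through chemokines and Notch ligands, and present peptides that they cut with a proteasome subunit and proteases of their own, on which positive selection depends. mTECs express genes of peripheral tissues under the control of AIRE and FEZF2, present the products to developing T cells, and draw selected thymocytes into the medulla with CCL21 and CCL19. The transcription factor FOXN1 is needed in both lineages and directly activates many genes of the cortical program. During pregnancy the thymus loses most of its thymocytes and then regrows after birth.

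The promoters of 3 cortical genes are shown because their transcripts differed between the cell types to unequal degrees at D-2. *Ackr4* was far higher in cTECs, *Psmb11* was higher by just under 2-fold, and *Ccl25* did not pass the test. The sequences come from RefSeq on GRCm38.p6, run 5′ to 3′ on the gene's strand from 250 bases before to 50 bases after an annotated start, and are in lower case with each GACGC, or its reverse complement GCGTC, in capitals. GACGC is the core of the motif bound by FOXN1. For *Ccl25* the first of its annotated starts is shown.
Psmb11 (chr14:54625060-54625359, plus strand): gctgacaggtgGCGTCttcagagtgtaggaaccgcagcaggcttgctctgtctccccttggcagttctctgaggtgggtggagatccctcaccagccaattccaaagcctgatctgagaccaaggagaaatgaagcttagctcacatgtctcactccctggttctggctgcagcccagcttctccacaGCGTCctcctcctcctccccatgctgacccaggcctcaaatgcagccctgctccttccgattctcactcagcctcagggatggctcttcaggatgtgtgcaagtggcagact
Ccl25 (chr8:4324960-4325259, plus strand): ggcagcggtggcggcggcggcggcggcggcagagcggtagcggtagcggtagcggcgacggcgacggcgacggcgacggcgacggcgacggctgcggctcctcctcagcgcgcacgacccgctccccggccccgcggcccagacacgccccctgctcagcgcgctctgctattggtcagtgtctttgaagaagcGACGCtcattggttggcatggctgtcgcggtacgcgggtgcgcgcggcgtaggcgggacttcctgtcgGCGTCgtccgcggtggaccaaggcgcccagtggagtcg
Ackr4 (chr9:104126594-104126893, minus strand): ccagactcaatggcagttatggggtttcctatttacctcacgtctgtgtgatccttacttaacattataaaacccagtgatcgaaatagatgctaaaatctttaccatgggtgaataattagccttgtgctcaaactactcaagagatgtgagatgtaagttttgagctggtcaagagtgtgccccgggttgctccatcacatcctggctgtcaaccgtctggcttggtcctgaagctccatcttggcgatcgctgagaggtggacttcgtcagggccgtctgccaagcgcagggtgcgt
The *Psmb11* window holds GCGTC 2 times, the *Ccl25* window holds GACGC 1 time and GCGTC 1 time, and the *Ackr4* window holds neither. These letters, on either strand, occur in 27.2% of the 32851 promoters of 300 bases in the table. Of 18 genes chosen as a list of cortical identity, 15 had a promoter there, and 6 of the 15 held the letters in at least 1 promoter. The 27.2% counts promoters and the 6 of 15 counts genes, which can have more than 1 promoter, so the shares are not alike. A match of letters is a description and not a measured binding site.

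Expression was deposited in expected counts and in FPKM, fragments scaled to transcript length and to library size, which allows levels of different genes to be set side by side. Totals were 8495657 to 11639179 counts in cTECs and 9991569 to 48195568 in mTECs, with mTEC number 4 the deepest, and 15121 to 18721 and 18648 to 20988 genes had a count. EpCAM and CD45, protein markers used to sort, were matched by their transcripts. *Epcam* was at 63.5, 135 and 103 FPKM in cTECs and 117, 127 and 168 FPKM in mTECs. *Ptprc*, which encodes CD45, stayed at or below 2.04 FPKM in all 6 libraries. *Fut1*, an enzyme that adds the fucose to which UEA1 binds, was at 2.21, 1.93 and 2.86 FPKM in cTECs and 26.9, 26.4 and 21.7 FPKM in mTECs, with no overlap. The related gene *Fut2* did not separate the cell types. It was at 2.30, 4.08 and 1.26 FPKM in cTECs and 2.62, 2.88 and 7.51 FPKM in mTECs, and was not called. Summed FPKM of 20 thymocyte genes was 39.1 to 42.2 in cTECs and 38.8 to 61.5 in mTECs. For 14 macrophage and dendritic cell genes the sum was 15.0 to 26.8 in cTECs and 68.6 to 106 in mTECs, where *Lyz2*, at 8.28, 15.97 and 8.16 FPKM in cTECs and 45.6, 76.7 and 55.4 FPKM in mTECs, made up most of it and was called higher in mTECs by the thresholds given below. Of the 10 members tested, 9 had negative log2 differences (cTEC minus mTEC, median −2.16), and mTECs were above cTECs without overlap for 5, *C1qa*, *C1qb* and *Csf1r* among them. *C1qb* was at 0, 1.03 and 0.45 FPKM in cTECs and 4.98, 3.95 and 7.70 FPKM in mTECs. The dendritic cell markers *Itgax* and *Xcr1* were at or below 0.52 FPKM in all 6 libraries. The sum over 6 erythroid genes was 0 to 9.57 in cTECs and 16.4 to 25.5 in mTECs, and that over 8 endothelial genes was 4.46 to 9.03 and 9.82 to 17.3. The 5 endothelial genes tested went both ways, 2 positive and 3 negative, and 0 were called. Their median log2 difference was −0.16, and they ranged from −3.14 for *Flt1* to 5.35 for *Cldn5*. Summed FPKM of 10 mesenchymal genes was 325 to 421 in cTECs and 295 to 402 in mTECs, but its members went opposite ways. *Dcn* was called higher in cTECs (log2 difference 1.25), whereas *Acta2* (−1.79), *Rgs5* (−3.58), *Fbn1* (−1.69) and *Col1a1* (−4.80) were called higher in mTECs, the last not without the block described below. The median of the 9 members tested was −1.69. The part of such cells in the differences below was not tested. In sorted bulk samples, fewer cells of a subtype and less RNA per cell cannot be told apart.

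Between cTECs and mTECs at D-2, 858 of the 18993 genes tested differed (4.52%), of which 336 (1.77%) were higher in cTECs and 522 (2.75%) were higher in mTECs. A gene was called when its fold difference was at least 2 and its Benjamini-Hochberg adjusted p was at most 0.01 in limma-voom with the title number as a block. Every log2 difference below is cTEC minus mTEC from that fit, with its standard error (SE), unless another fit is named. Without the block 550 genes were called (2.9%), 238 higher in cTECs (1.25%) and 312 in mTECs (1.64%), and 546 of the 550 were among the 858. Without the samples numbered 3 the count was 354. A further 399 genes (2.1%) passed the adjusted p with a fold under 2. The median log2 difference over all genes tested was −0.07, and its median size was 0.58. All 3 cTEC samples lay above all 3 mTEC samples for 11.8% of genes, and below them for 16.7%, together 28.5%. Of the called genes, 30 had no count in any cTEC library and 1 had none in any mTEC library, the cTEC libraries being on the whole the shallower ones.

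The cortical program was present at D-2, but unevenly. Of 18 genes of cortical identity, 8 were higher in cTECs, 0 were higher in mTECs and 10 were not called, with a median log2 difference of 0.78. All cTECs were above all mTECs for 10 of the 18. The 8 were a chemokine and a chemokine scavenger, surface molecules, a cytokine, a protease and a transcription factor. *Ackr4* (ENSMUSG00000079355.5, chr9:104084157-104126933, minus strand), an atypical receptor that clears CCL19, CCL21 and CCL25, had 193, 171 and 151 FPKM in cTECs and 23.4, 12.9 and 26.5 FPKM in mTECs. The groups were far apart, with the lowest cTEC above the highest mTEC (log2 difference 3.01 ± 0.22 SE, adjusted p = 4.1e-09). *Cxcl12* (ENSMUSG00000061353.11, chr6:117168535-117181367, plus strand), the chemokine that guides CXCR4+ precursors, had 407, 284 and 382 FPKM in cTECs and 84.3, 51.6 and 97.95 FPKM in mTECs. Number 3 was lowest in both cell types, and the groups did not overlap (log2 difference 2.24 ± 0.15 SE, adjusted p = 1.3e-09). *Enpep*, the aminopeptidase known as Ly51 by which cTECs are often stained, had 37.96, 29.97 and 43.6 FPKM in cTECs and 5.18, 6.95 and 7.66 FPKM in mTECs. Every cTEC sample exceeded every mTEC sample (log2 difference 2.53 ± 0.22 SE, adjusted p = 4.0e-08).

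The thymus-specific serine protease gene *Prss16* (ENSMUSG00000006179.8, chr13:22002173-22009742, minus strand), whose product makes MHC class II peptides in the cortex, had 278, 169.7 and 214 FPKM in cTECs and 81.5, 32.3 and 67.6 FPKM in mTECs. Number 1 was highest and number 3 lowest in each cell type, and the cell types did not overlap (log2 difference 1.89 ± 0.16 SE, adjusted p = 3.3e-08). *Ly75* (ENSMUSG00000026980.15, chr2:60292103-60383303, minus strand), which encodes the endocytic receptor DEC205, had 33.4, 24.7 and 30.1 FPKM in cTECs and 9.86, 7.73 and 10.98 FPKM in mTECs. All cTEC samples were above all mTEC samples (log2 difference 1.60 ± 0.17 SE, adjusted p = 8.1e-07). For *Cd83*, which holds MHC class II at the surface, the values were 14.3, 12.3 and 24.6 FPKM in cTECs and 3.98, 2.99 and 3.13 FPKM in mTECs. cTEC number 4 was the highest and the mTECs lay close together below (log2 difference 2.63 ± 0.36 SE, adjusted p = 2.0e-05). *Kitl*, the growth factor for KIT+ progenitors, was at 29.9, 15.7 and 13.9 FPKM in cTECs and 2.65, 3.49 and 6.57 FPKM in mTECs, with cTEC number 1 standing above the rest (log2 difference 1.68 ± 0.29 SE, adjusted p = 2.7e-04). *Pax1*, a transcription factor of the pharyngeal pouch, was at 422, 323 and 382 FPKM in cTECs and 188, 104 and 173 FPKM in mTECs, without overlap (log2 difference 1.30 ± 0.14 SE, adjusted p = 8.5e-07).

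The other 10 genes of the list did not pass both thresholds, among them the catalytic subunit that defines the cortical proteasome. *Psmb11* (ENSMUSG00000072423.4, chr14:54621433-54629556, plus strand), which encodes β5t, had 36.2, 15.9 and 29.9 FPKM in cTECs and 27.6, 5.69 and 13.6 FPKM in mTECs. Number 1 was highest and number 3 lowest in both cell types, and mTEC number 1 was above cTEC number 3, so the groups overlapped. Within each number the cTEC value was the higher, the difference passed the adjusted p, and the fold fell short of 2 (log2 difference 0.92 ± 0.20 SE, adjusted p = 0.0034). Without the block the adjusted p was 0.14. edgeR put the log2 difference at 1.01 and called it, and so did limma-voom without number 1, at 1.25. *Ctsl*, the lysosomal protease that cortical cells use for MHC class II peptides, also passed the adjusted p with a fold under 2 at 1281, 759 and 1029 FPKM in cTECs and 723, 426 and 856 FPKM in mTECs (log2 difference 0.63 ± 0.14 SE, adjusted p = 0.0027).

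*Ccl25* (ENSMUSG00000023235.14, chr8:4325210-4360020, plus strand), the ligand of CCR9 on incoming precursors, had 535, 240.4 and 404 FPKM in cTECs and 440.4, 211 and 315 FPKM in mTECs. The values of the cell types interleaved, and number set the order more than cell type did (log2 difference 0.29 ± 0.14 SE, adjusted p = 0.18). *Tbata*, a gene named for its expression in thymus, brain and testis, had 601, 249.6 and 339 FPKM in cTECs and 566, 288 and 377 FPKM in mTECs, again with overlapping groups (log2 difference −0.17 ± 0.14 SE, adjusted p = 0.49). *Foxn1* itself was at 109, 74.3 and 92.3 FPKM in cTECs and 137, 86.6 and 70.1 FPKM in mTECs, with no order between the cell types (log2 difference −0.03 ± 0.16 SE, adjusted p = 0.93). *Dll4* (ENSMUSG00000027314.6, chr2:119325784-119335962, plus strand), the Notch ligand that commits precursors to the T lineage, was low at 5.37, 3.03 and 3.13 FPKM in cTECs and 7.10, 4.06 and 6.52 FPKM in mTECs. mTEC number 1 was the highest library and cTEC numbers 3 and 4 the lowest (log2 difference −0.66 ± 0.36 SE, adjusted p = 0.24). The remaining members, *Il7*, *Krt8*, *Krt18* and *Cd274*, had log2 differences from −0.33 to 0.45, and none of these 4 passed the adjusted p.

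**Figure D1:**
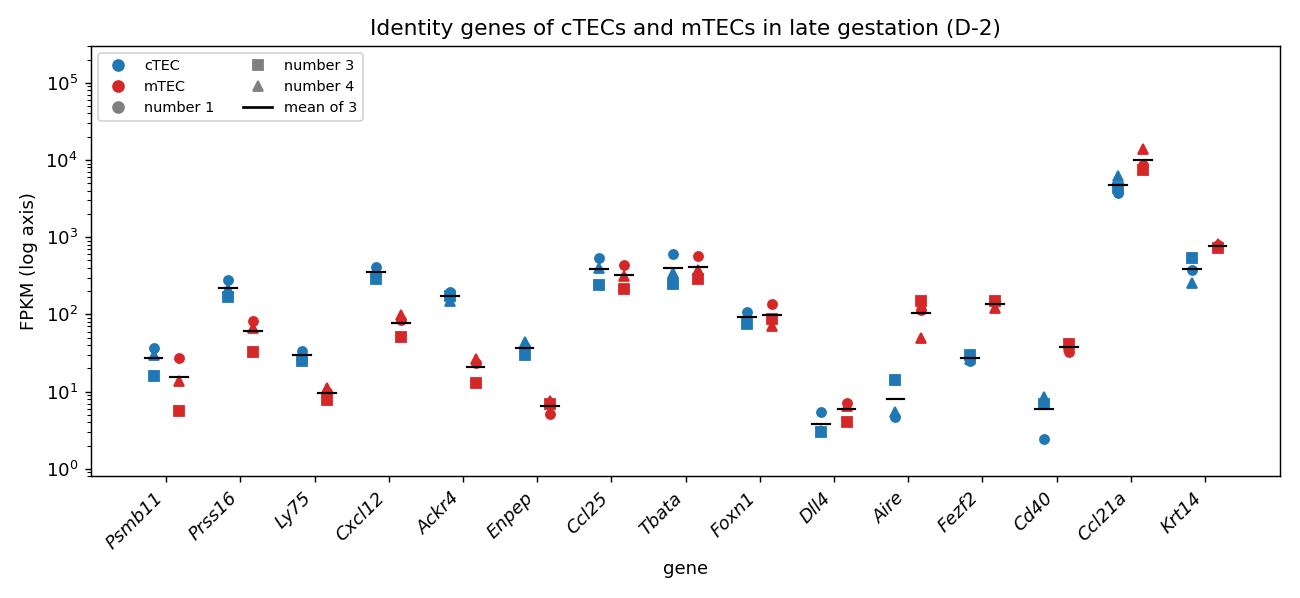
FPKM on a log axis (vertical) of 15 genes (horizontal) at D-2, with cTECs in blue, mTECs in red, marker shapes for the title numbers 1, 3 and 4, and black bars for the mean of 3 samples. The cell types are apart for *Cxcl12*, *Ackr4*, *Enpep*, *Aire*, *Fezf2* and *Cd40*, and overlap for *Psmb11*, *Ccl25*, *Tbata*, *Foxn1* and *Dll4*.

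*Aire* and *Fezf2*, the regulators of the medullary program, were higher in mTECs at D-2, whereas most of their partners were not called. Of 14 genes for AIRE, FEZF2 and their partners, 4 were higher in mTECs, 0 were higher in cTECs and 10 were not called, with a median log2 difference of −0.68 and 4 positive values. *Aire* (ENSMUSG00000000731.15, chr10:78030022-78043610, minus strand) had 4.66, 14.1 and 5.45 FPKM in cTECs and 113, 149 and 50.1 FPKM in mTECs. mTEC number 4 was the lowest of its group and still above every cTEC sample, of which number 3 was the highest (log2 difference −3.78 ± 0.32 SE, adjusted p = 3.3e-08). *Fezf2* (ENSMUSG00000021743.5, chr14:12342094-12348189, minus strand), which drives a separate set of tissue-restricted genes, had 25.1, 29.8 and 26.6 FPKM in cTECs and 145, 148 and 121 FPKM in mTECs. Both groups were tight and did not overlap (log2 difference −2.32 ± 0.18 SE, adjusted p = 7.6e-09). *Spib*, an ETS family factor of mTECs and microfold cells, was at 17.4, 27.6 and 12.3 FPKM in cTECs and 92.6, 102 and 73.4 FPKM in mTECs (log2 difference −2.38 ± 0.21 SE, adjusted p = 3.3e-08). *Sirt1*, the deacetylase that acts on AIRE, was at 9.95, 14.1 and 11.6 FPKM in cTECs and 45.4, 54.2 and 26.7 FPKM in mTECs, also with every mTEC above every cTEC (log2 difference −1.60 ± 0.21 SE, adjusted p = 9.7e-06). *Top1*, a topoisomerase with which AIRE works, passed the adjusted p with a fold just under 2 (log2 difference −0.96). A further 8 members had log2 differences between −0.75 and 0.67 and did not pass it.

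The genes of junctional and basal mTECs, which make medullary chemokines and stratified keratins, gave 4 of 14 higher in mTECs and 0 in cTECs, with a median log2 difference of −0.49. *Ccl21a* (ENSMUSG00000094686.1, chr4:42772860-42773993, minus strand), the CCR7 ligand that brings positively selected cells to the medulla, was the most abundant marker in both cell types at 3759.7, 4302 and 6267 FPKM in cTECs and 8643, 7515 and 13748 FPKM in mTECs. Number 4 was highest in both, and the groups did not overlap (log2 difference −1.03 ± 0.12 SE, adjusted p = 1.9e-06), but the call was lost without the block, where the adjusted p was 0.0103. Near-identical copies of *Ccl21a* share its reads, so the split among them is uncertain. Summed over *Ccl21a*, *Ccl21b*, *Gm13304*, *Gm21541* and *Gm10591*, the cTECs had 3847, 4395 and 6400.5 FPKM and the mTECs 10720.0, 9084 and 16273 FPKM, again without overlap.

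*Ccl19*, the second CCR7 ligand, was at 13.2, 34.6 and 55.95 FPKM in cTECs and 82.98, 119.95 and 90.04 FPKM in mTECs, with cTEC number 1 the lowest (log2 difference −1.41 ± 0.31 SE, adjusted p = 0.0035, and adjusted p = 0.014 without the block). *Krt14*, the basal keratin, was at 372, 538 and 253 FPKM in cTECs and 783, 727 and 813 FPKM in mTECs, with the cTEC samples further apart than the mTEC samples (log2 difference −1.21 ± 0.18 SE, adjusted p = 6.6e-05). *Krt17* and *Itga6* passed the adjusted p toward mTECs (log2 differences −0.75 and −0.70), and *Trp63*, the master factor of stratified epithelia, passed it toward cTECs (0.61), all with folds under 2. *Krt5*, the partner of *Krt14*, was at 1612, 1724 and 1526 FPKM in cTECs and 2156, 1785 and 2151 FPKM in mTECs and did not pass (log2 difference −0.31 ± 0.12 SE, adjusted p = 0.098).

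Receptors and messengers of the NF-κB pathway, on which mTEC maturation depends, were higher in mTECs for 5 of 12 genes and higher in cTECs for 0, with a median log2 difference of −0.93. *Tnfrsf11a*, which encodes RANK, was at 2.14, 8.17 and 5.81 FPKM in cTECs and 36.9, 41.3 and 19.8 FPKM in mTECs. The lowest mTEC was above the highest cTEC (log2 difference −2.53 ± 0.30 SE, adjusted p = 2.5e-06). *Cd40* was at 2.42, 6.88 and 8.48 FPKM in cTECs and 32.3, 41.9 and 38.3 FPKM in mTECs, with cTEC number 1 the lowest (log2 difference −2.76 ± 0.50 SE, adjusted p = 5.7e-04). The kinase gene *Map3k14* (log2 difference −1.05), the inhibitor *Nfkbie* (−1.24) and the ubiquitin ligase *Birc3* (−1.26) completed the 5. The subunits *Relb* (−0.87) and *Nfkb2* (−0.96) and the ligase *Traf6* (−0.90) passed the adjusted p with folds under 2. The lymphotoxin receptor *Ltbr* and the classical subunits *Rela* and *Nfkb1* had positive values, 0.58, 0.36 and 0.44, and did not pass.

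All 12 genes for costimulation and chemokines of mature mTECs had negative log2 differences, with a median of −2.27, and 5 were called. *Cd80*, a ligand of CD28, was at 4.44, 6.69 and 3.43 FPKM in cTECs and 19.6, 37.5 and 10.3 FPKM in mTECs. No cTEC reached the lowest mTEC, number 4 (log2 difference −2.22 ± 0.42 SE, adjusted p = 8.9e-04), but without the block the adjusted p was 0.13. *Icosl*, the ligand of ICOS, was at 1.36, 5.19 and 3.03 FPKM in cTECs and 25.9, 32.2 and 20.6 FPKM in mTECs (log2 difference −2.72 ± 0.44 SE, adjusted p = 1.4e-04). *Tnfrsf11b*, the decoy receptor that binds RANKL, was at 0, 1.89 and 1.82 FPKM in cTECs and 9.88, 20.03 and 10.8 FPKM in mTECs, and *Ccl22*, a ligand of CCR4, at 1.27, 1.61 and 1.77 FPKM in cTECs and 6.15, 15.1 and 11.8 FPKM in mTECs. Both were called with the block (adjusted p = 0.0073 and 0.0059) and not without it (0.037 and 0.027). *Cd86* and *Ccl17*, at or below 11.4 FPKM in every library, did not pass.

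Genes of peripheral tissues and of the mTEC types that mimic peripheral cells were mostly on the mTEC side. Of 15 tissue-restricted antigen genes 13 could be tested, all 13 had negative differences with the block (median −2.02) and 4 were called. The weakest, *Apoc3*, was at −0.43 with the block and at 0.90 without it, so the shared sign depended on the block. *Csn2*, the gene of the milk protein β-casein, was at 6.61, 40.4 and 35.1 FPKM in cTECs and 194, 246 and 184 FPKM in mTECs. cTEC number 1 was well below the other cTECs, and all were below the mTECs (log2 difference −2.91 ± 0.31 SE, adjusted p = 5.5e-07). *Gad1*, an enzyme of GABA synthesis, had no count in any cTEC library and 2.18, 11.9 and 3.89 FPKM in mTECs. With the cTECs set at the floor of 3 counts over their 3 libraries, the mTEC mean was at least 116-fold higher. That bound leaves out the spread between mTEC libraries, of which number 3 was the highest. *Crp*, a liver acute-phase protein, was at 0.73, 2.29 and 0 FPKM in cTECs and 18.8, 28.9 and 17.3 FPKM in mTECs and *Apoa4*, an apolipoprotein, at 7.61, 13.7 and 3.47 FPKM in cTECs and 20.7, 32.7 and 18.4 FPKM in mTECs. Their calls (adjusted p = 0.003 and 0.0053) were lost without the block (0.014 and 0.042). *Ins2* was listed at 0 in both cell types except in the samples numbered 4.

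Cornified cells, which resemble the skin surface, gave 5 of 15 genes higher in mTECs, 0 higher in cTECs and a median of −1.63. *Krt10*, the keratin of differentiating epidermis, was at 11.2, 15.7 and 6.77 FPKM in cTECs and 38.5, 63.95 and 36.7 FPKM in mTECs (log2 difference −2.40 ± 0.33 SE, adjusted p = 2.4e-05). *Dsg1a*, a desmosomal cadherin, was at 2.92, 2.82 and 1.38 FPKM in cTECs and 22.4, 43.1 and 15.5 FPKM in mTECs, with every mTEC above every cTEC (log2 difference −3.53 ± 0.32 SE, adjusted p = 7.1e-08). *Spink5*, *Krtdap* and *Krt77* were the others, with log2 differences of −1.63, −1.81 and −2.75, and the call of *Krtdap* was lost without the block (adjusted p = 0.0103). Of 8 microfold genes, *Spib* and *Tnfaip2* were higher in mTECs (median −1.68). Muscle genes gave 2 of 7, *Ckm*, the muscle creatine kinase, and *Ttn* (median −2.50), and neither call held without the block.

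Tuft and ciliated genes did not follow this direction. None of 15 tuft genes was called and their median was −0.14. For lists of this size a count of 0 is near the 4.52% called over all genes, as it is for the ciliated genes. *Trpm5*, the cation channel of taste transduction, was at 15.9, 30.6 and 13.5 FPKM in cTECs and 19.6, 16.7 and 15.7 FPKM in mTECs, and *Pou2f3*, the master factor of tuft cells, at 5.45, 10.99 and 7.11 FPKM in cTECs and 9.07, 12.7 and 11.7 FPKM in mTECs, with interleaved values in both. None of 8 ciliated genes was called either, and all 8 had positive values (median 0.68). *Trp73*, a relative of p53 that ciliated cells need, was at 7.45, 8.63 and 4.63 FPKM in cTECs and 3.47, 4.74 and 2.45 FPKM in mTECs, with a slight overlap (log2 difference 1.26 ± 0.35 SE, adjusted p = 0.02). Neuroendocrine genes split. *Insm1*, a zinc-finger factor of endocrine cells, and *Scg2*, a granin, were higher in mTECs (log2 differences −2.74 and −3.82), whereas *Chga* was higher in cTECs, as described with the parathyroid genes.

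**Figure D2:**
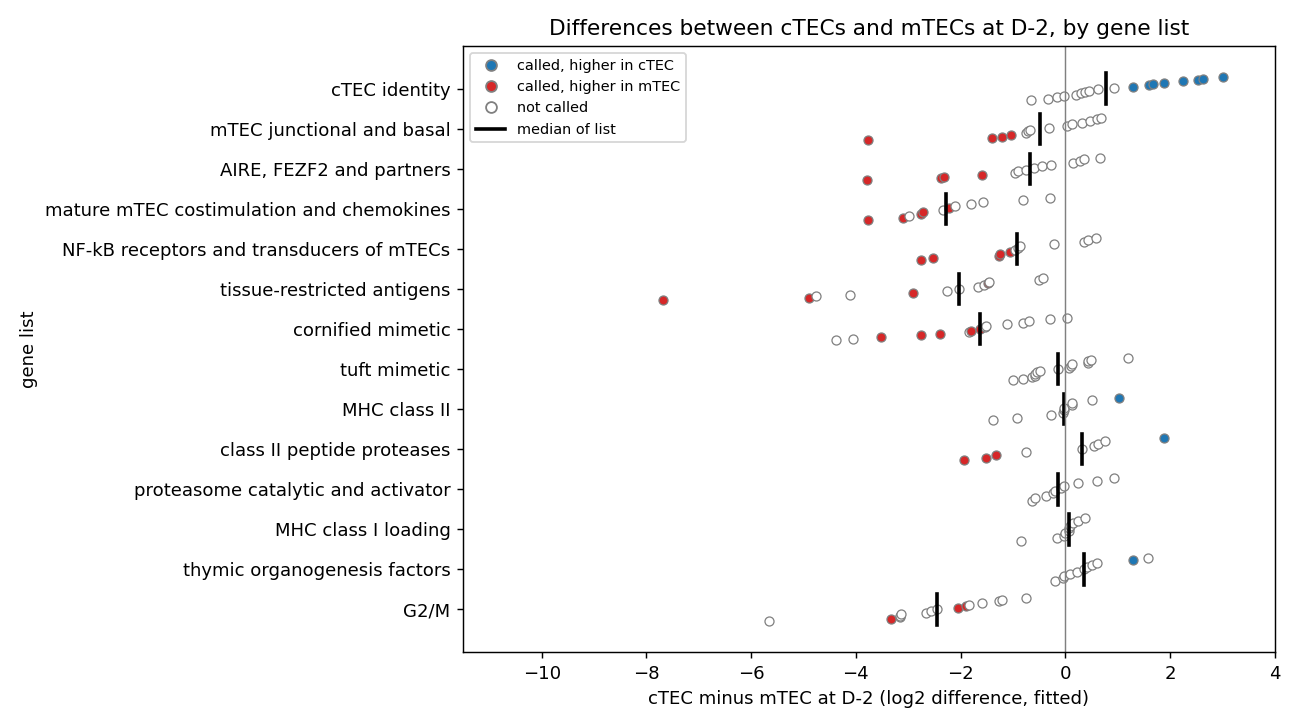
Fitted log2 difference between cTECs and mTECs at D-2 (horizontal, positive means higher in cTECs) for each tested member of 14 gene lists (vertical), with called genes in blue or red, uncalled genes in white and the list median as a black bar. The called cTEC identity genes lie to the right, the AIRE, costimulation, antigen and cornified lists lie mostly to the left, and the MHC and proteasome lists centre near 0.

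Of 10 MHC class II genes, which present peptides to CD4+ cells, 1 was called and their median log2 difference was −0.03. For lists of this size a count of 0 or 1 is near the 4.52% called over all genes, here and for each list below with such a count. *H2-Aa*, the α chain of the class II molecule, was at 3049.9, 2793 and 3219 FPKM in cTECs and 2777, 3188 and 3321 FPKM in mTECs. *Cd74*, the invariant chain, was at 5769.8, 5750.1 and 5647 FPKM in cTECs and 5449, 5806 and 6451 FPKM in mTECs, which for an abundant gene is close between all 6 libraries (log2 difference −0.03 ± 0.11 SE, adjusted p = 0.9). *H2-DMa*, which exchanges the invariant chain peptide for others, was the 1 called, at 175, 142 and 152 FPKM in cTECs and 78.8, 75.9 and 104 FPKM in mTECs (log2 difference 1.02 ± 0.16 SE, adjusted p = 1.4e-04). Without the block its log2 difference was 0.996, just under a fold of 2, and no class II gene was called. The gene *H2-Oa*, whose product opposes that of *H2-DMa*, was at 41.7, 68.1 and 67.7 FPKM in cTECs and 97.8, 117 and 125 FPKM in mTECs and passed the adjusted p toward mTECs with a fold under 2 (log2 difference −0.92 ± 0.19 SE, adjusted p = 0.0018). The partner chain *H2-Ob* had a log2 difference of −1.37 and was not called.

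The proteases that feed class II peptides differed between the cell types. *Ctss*, the cathepsin of professional presenting cells, was at 3.05, 18.5 and 12.2 FPKM in cTECs and 41.7, 46.5 and 55.9 FPKM in mTECs. cTEC number 1 was lowest and the groups did not overlap (log2 difference −1.94 ± 0.37 SE, adjusted p = 9.6e-04). *Ctsz* and *Ctsh* were also higher in mTECs (log2 differences −1.52 and −1.33, the latter with adjusted p = 0.011 without the block). With *Prss16* higher in cTECs, 4 of 9 proteases were called, and *Ctsd* and *Ctsl* passed the adjusted p toward cTECs with folds under 2.

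None of 10 proteasome genes was called, and the median was −0.14. The standard catalytic subunit *Psmb5* was at 82.2, 75.3 and 63.3 FPKM in cTECs and 48.8, 71.5 and 63.8 FPKM in mTECs, and the immunoproteasome subunits *Psmb8* and *Psmb9* at 205, 214 and 216 FPKM in cTECs and 199, 201 and 230.1 FPKM in mTECs and at 207, 132 and 184 FPKM in cTECs and 148, 134 and 124 FPKM in mTECs, respectively. *Psmb8* was level across all 6 libraries, and *Psmb9* overlapped. *Psmb11* was thus less abundant per length than *Psmb5* in every cTEC library at D-2. None of 10 genes of class I loading was called (median 0.08). *Tap1* was at 79.1, 109 and 111 FPKM in cTECs and 84.4, 106 and 111 FPKM in mTECs, the same range in both.

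Of 11 factors that build the thymus only *Pax1* was called, and their median was 0.36. *Eya1*, a transcriptional cofactor of the pharyngeal pouch, was at 54.00, 54.7 and 37.7 FPKM in cTECs and 36.95, 46.7 and 36.1 FPKM in mTECs, with overlapping groups. In a list of 12 Notch genes, the ligand *Jag2* was higher in cTECs at 97.8, 76.3 and 81.9 FPKM in cTECs and 37.6, 26.8 and 43.4 FPKM in mTECs (log2 difference 1.25 ± 0.16 SE, adjusted p = 7.7e-06). *Hes6*, a factor related to the Notch targets, was higher in mTECs at 46.2, 16.1 and 12.1 FPKM in cTECs and 88.8, 52.2 and 69.96 FPKM in mTECs, with number 1 highest in both cell types (log2 difference −1.58 ± 0.28 SE, adjusted p = 3.6e-04). The classical target *Hes1* was at 119, 87.9 and 127 FPKM in cTECs and 102, 80.8 and 117 FPKM in mTECs and was not called.

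Receptors for the hormones of pregnancy were unequal between the cell types. *Pgr* (ENSMUSG00000031870.16, chr9:8899833-8968611, plus strand), the progesterone receptor, was at 10.6, 12.6 and 18.2 FPKM in cTECs and 4.33, 5.12 and 5.48 FPKM in mTECs. Every cTEC was above every mTEC (log2 difference 1.58 ± 0.22 SE, adjusted p = 3.2e-05). *Nr3c2*, the mineralocorticoid receptor, was higher in cTECs as well at 10.8, 9.70 and 5.83 FPKM in cTECs and 4.61, 2.22 and 3.53 FPKM in mTECs, with adjusted p = 0.0033 with the block and 0.012 without it. *Prlr*, the prolactin receptor, was higher in mTECs at 0.13, 2.82 and 1.21 FPKM in cTECs and 9.85, 22.1 and 5.36 FPKM in mTECs, with number 3 highest in both (log2 difference −3.00 ± 0.61 SE, adjusted p = 0.0017, and adjusted p = 0.04 without the block). *Esr1*, an estrogen receptor, was not called (log2 difference −0.50), and *Nr3c1*, the glucocorticoid receptor, was at 34.4, 32.8 and 33.6 FPKM in cTECs and 14.7, 19.2 and 21.6 FPKM in mTECs, with cTECs above mTECs but an adjusted p of 0.011. None of 11 genes that steroid receptors induce was called. *Fkbp5*, *Per1*, *Serpina3n* and *Cited2* passed the adjusted p toward cTECs with folds under 2 (log2 differences 0.79, 0.79, 0.73 and 0.76), and the median of the list was −0.07, that of all genes.

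With the block all 15 genes of the G2 and M phases had negative differences (median −2.45), and 3 were called. Without it 0 were called and the signs were not all negative, with log2 differences of 0.23 for *Aurka* and 0.64 for *Birc5*. *Top2a*, a topoisomerase of dividing cells, was at 2.59, 3.56 and 1.76 FPKM in cTECs and 13.97, 20.8 and 4.41 FPKM in mTECs. Number 4 was lowest in each cell type (log2 difference −3.33 ± 0.53 SE, adjusted p = 1.3e-04, and adjusted p = 0.11 without the block). *Mki67*, which marks cycling cells, was at 4.53, 3.85 and 0.91 FPKM in cTECs and 9.83, 12.3 and 2.75 FPKM in mTECs, so that mTEC number 4 was below cTEC numbers 1 and 3 (log2 difference −1.90 with the block). Of 10 simple keratin and junction genes, *Krt19* was higher in cTECs (log2 difference 1.30) and *Tjp3* in mTECs (−1.15, not called without the block), while the cadherin *Cdh1* was level at 109, 137 and 127 FPKM in cTECs and 95.01, 129 and 147 FPKM in mTECs. None of 11 genes that rise on tissue dissociation was called (median 0.42).

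Beyond these lists, the largest differences among called genes with a mean of at least 5 FPKM and no overlap were taken, 12 in each direction. On the cTEC side they were *Gm13629*, *Rapgef3*, *Cpe*, *Igfbp7*, *Prss23*, *Prkcq*, *Abat*, *Arfgef3*, *Scn1a*, *Prelp*, *Il33* and *Mtcl1*, with log2 differences from 3.07 to 4.80. Without the block *Gm13629* and *Rapgef3* were not called (adjusted p = 0.015 and 0.012). *Gm13629* is annotated as antisense and starts beside *Scn1a*, which lies on the other strand. *Prelp* (ENSMUSG00000041577.5, chr1:133910304-133921414, minus strand), a proteoglycan of basement membranes, was the most abundant at 469.9, 382 and 400.4 FPKM in cTECs and 46.1, 33.8 and 67.4 FPKM in mTECs. Its cTEC values were all more than 5 times its mTEC values (log2 difference 3.10 ± 0.16 SE, adjusted p = 2.5e-11). *Igfbp7*, a secreted binder of insulin-like growth factors, was at 62.8, 48.8 and 38.1 FPKM in cTECs and 4.65, 0.77 and 4.32 FPKM in mTECs (log2 difference 3.51 ± 0.49 SE, adjusted p = 2.6e-05). *Il33*, an alarmin cytokine, was at 24.3, 36.7 and 46.03 FPKM in cTECs and 2.90, 4.63 and 4.17 FPKM in mTECs, without overlap (log2 difference 3.07 ± 0.33 SE, adjusted p = 7.8e-07). *Prkcq*, the kinase PKCθ, was at 30.4, 33.6 and 37.95 FPKM in cTECs and 2.64, 3.49 and 4.03 FPKM in mTECs (log2 difference 3.38 ± 0.27 SE, adjusted p = 1.5e-08). *Cpe*, a carboxypeptidase of prohormones, had the tightest cTEC values of the 12 at 24.4, 23.7 and 23.4 FPKM, against 5.05, 7.69 and 1.48 FPKM in mTECs.

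On the mTEC side 8 of the 12 had no count in any cTEC library, and *Col2a1*, *Cyp26a1* and *Gatm* had a value above 0 in a single cTEC library. *Dlk1*, an imprinted ligand-like membrane protein, had 5.62, 8.21 and 5.31 FPKM in mTECs, with a mean at least 92.5-fold higher than cTECs at their floor. *Csn1s2a*, another milk casein, had 7.48, 7.87 and 5.90 FPKM, with a mean at least 54.4-fold higher. *Mucl2*, a mucin-like protein, had 10.8, 7.78 and 13.7 FPKM, with a mean at least 56.9-fold higher. *Col2a1*, the collagen of cartilage, was at 0, 0.16 and 0 FPKM in cTECs and 5.03, 8.64 and 4.90 FPKM in mTECs, and *Cyp26a1*, which degrades retinoic acid, at 0, 0.05 and 0 FPKM in cTECs and 4.80, 7.81 and 3.13 FPKM in mTECs. The call of *Cyp26a1* was lost without the block (adjusted p = 0.013). *Gm13539*, *Gm6565*, *I830127L07Rik*, *Gatm*, *Ckm* and *Gad1* had the same shape, and *Gm6565* is annotated as a processed pseudogene, whose reads may belong to its parent gene. The largest fitted difference was that of the mitochondrial gene *mt-Co3*, which was at 0.16, 0.16 and 0.16 FPKM in cTECs and 0.17, 0.17 and 590.4 FPKM in mTECs. It rests on mTEC number 4 alone, and without the block its adjusted p was 0.21.

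Some genes varied with the title number in both cell types. *Psmb11*, *Prss16*, *Ccl25* and *Tbata* were each highest in number 1 and lowest in number 3 in cTECs and in mTECs alike. *Pth* (ENSMUSG00000059077.6, chr7:113385580-113388570, minus strand), the parathyroid hormone, was at 2386, 4518 and 208 FPKM in cTECs and 440.1, 378 and 62.00 FPKM in mTECs. *Chga*, a granin of hormone-storing cells, parathyroid among them, was at 3258, 4777 and 232 FPKM in cTECs and 522, 405 and 89.2 FPKM in mTECs. Number 4 was lowest in both cell types for both genes, and cTEC number 4 was below mTEC numbers 1 and 3, so the groups overlapped. With the block both were called higher in cTECs (*Pth*, log2 difference 2.72 ± 0.22 SE, adjusted p = 1.1e-08; *Chga*, log2 difference 2.64 ± 0.23 SE, adjusted p = 3.3e-08). Without it neither was (adjusted p = 0.061 and 0.065). The parathyroid factor *Gcm2* was at 4.51, 10.02 and 0.24 FPKM in cTECs and 0.18, 3.51 and 0.18 FPKM in mTECs and the calcium receptor *Casr* at 20.2, 36.6 and 3.45 FPKM in cTECs and 8.06, 10.9 and 5.26 FPKM in mTECs, with number 3 highest in both cell types. The part of parathyroid tissue in these values was not tested.

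**Figure D3:**
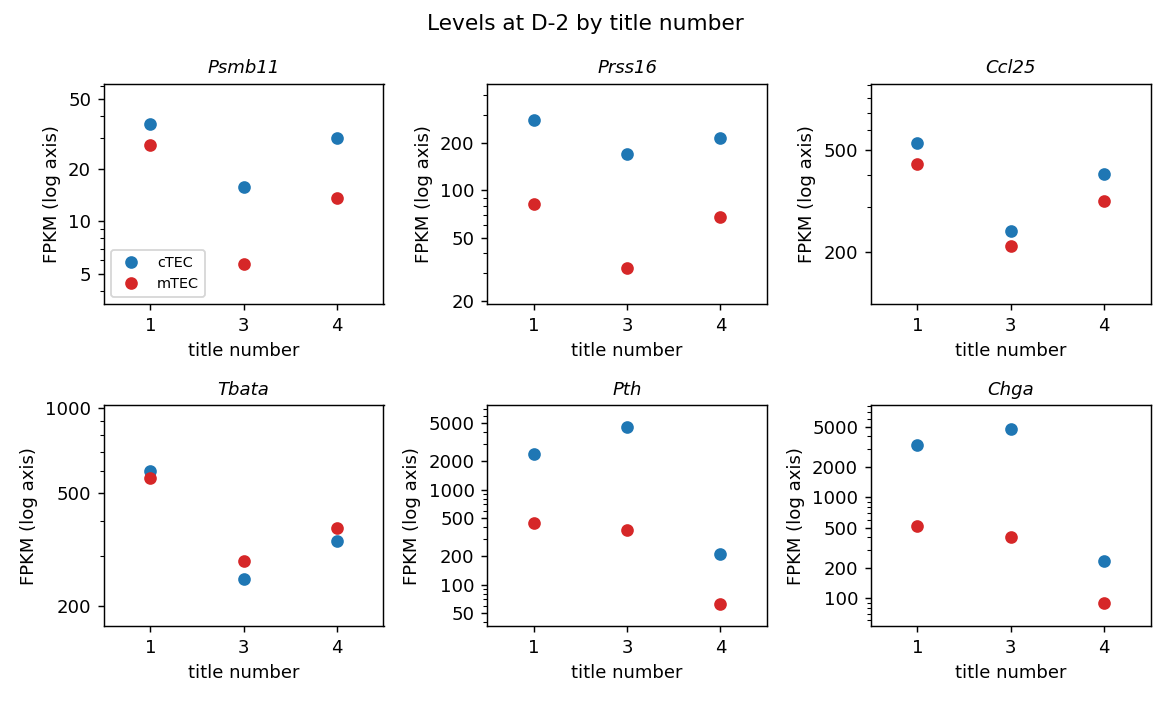
FPKM at D-2 on a log axis (vertical) by title number (horizontal) for *Psmb11*, *Prss16*, *Ccl25*, *Tbata*, *Pth* and *Chga*, with cTECs in blue and mTECs in red, 1 point for each library. The first 4 genes are highest in number 1 and lowest in number 3 in both cell types, and the last 2 are lowest in number 4.

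Compared with non-pregnant females, the difference between cTECs and mTECs was smaller at D-2 for most cortical genes, although no gene passed the test of that change. In this test the 12 samples of NPC and D-2 were fitted together, and the change is the D-2 difference minus the NPC difference on the log2 scale. It was called for 0 of 18950 genes (0%) in limma-voom and for 0 in edgeR, against 9 with DESeq2, while 1371 genes (7.23%) had an unadjusted p under 0.05. In simulated data of the same depth and spread, limma-voom found 5% of 4-fold changes in this test, so that a count of 0 says little. *Psmb11* had 231, 227 and 73.8 FPKM in cTECs and 25.7, 26.6 and 7.77 FPKM in mTECs in NPC. All NPC cTECs were above all NPC mTECs and above every D-2 library (change −2.11 ± 0.82 SE, unadjusted p = 0.02, adjusted p = 0.65). The NPC levels of *Prss16* were 1436, 2019.7 and 1194 FPKM in cTECs and 140.1, 174 and 138 FPKM in mTECs. All of these cTEC values were above all cTEC values at D-2 (change −1.53 ± 0.44 SE, unadjusted p = 0.0029, adjusted p = 0.6). For *Ccl25* they were 1995, 2513 and 882 FPKM in cTECs and 454, 373 and 312 FPKM in mTECs (change −1.88 ± 0.54 SE, unadjusted p = 0.0032, adjusted p = 0.6).

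*Dll4* had 20.4, 25.8 and 19.8 FPKM in cTECs and 7.32, 8.13 and 7.78 FPKM in mTECs in NPC, where every cTEC was above every mTEC. Its change was −2.23 ± 0.51 SE, unadjusted p = 4.4e-04, adjusted p = 0.6, the smallest unadjusted p among the cortical genes. *Tbata* changed by −1.62 ± 0.43 SE and *Ly75* by −1.50 ± 0.46 SE, with unadjusted p of 0.0017 and 0.0049 and adjusted p of 0.6 for both. Genes called at D-2 had smaller and larger changes, −0.63 ± 0.32 SE for *Cxcl12*, −0.70 ± 0.44 SE for *Ackr4* and −0.72 ± 0.49 SE for *Enpep*, against −1.55 ± 0.63 SE for *Cd83* and the values of *Prss16* and *Ly75* above. Among genes not called at D-2, *Foxn1* (−0.80) and *Ctsl* (−0.68) had smaller changes than *Psmb11*, *Dll4* and *Tbata*, which was not tested. On the medullary side the values went both ways, with *Fezf2* at −0.14 ± 0.34 SE, *Ccl21a* at 0.84 ± 0.40 SE and *Aire*, whose NPC mTECs spread widely, at 1.89 ± 1.57 SE.

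**Figure D4:**
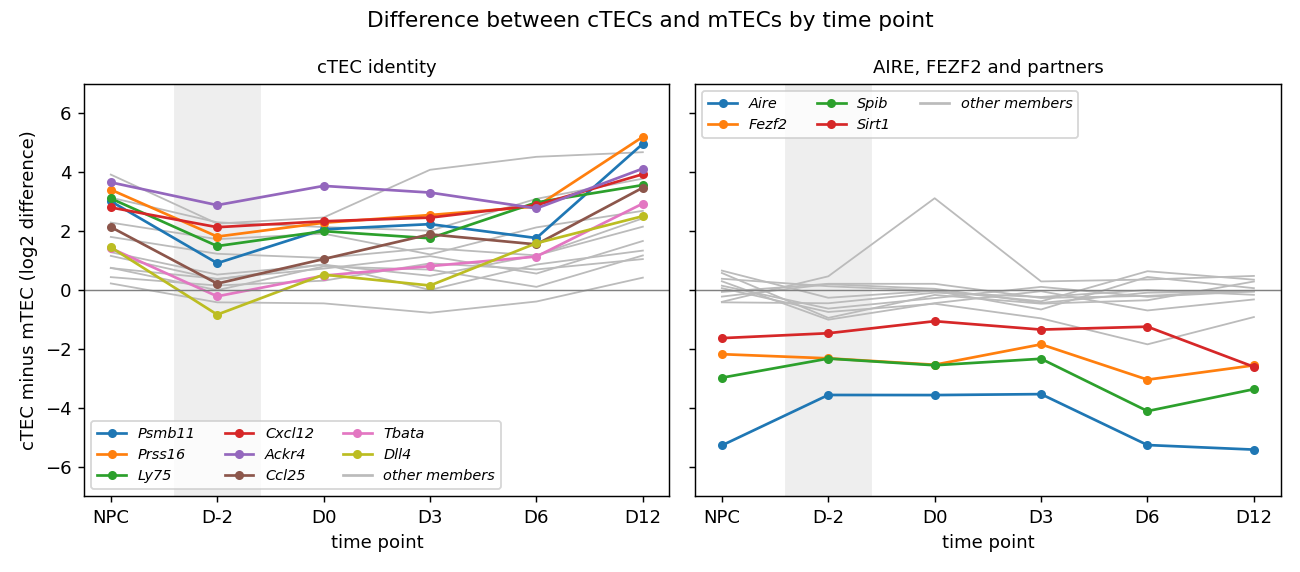
Log2 difference between cTECs and mTECs (vertical, positive means higher in cTECs) at 6 time points (horizontal) from 1 fit of 36 samples, for the cortical identity list on the left and for AIRE, FEZF2 and partners on the right, with named members in colour, the others in grey and D-2 shaded. *Psmb11* goes from 3.01 in NPC to 0.91 at D-2 and 4.96 at D12, while *Fezf2* stays between −3.05 and −1.85.

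Over the time course, D-2 had the smallest difference for the cortical list. All 36 samples of the 6 groups were fitted together for this description, with 18406 genes and no tests between groups. The median log2 difference of the 18 cortical genes was 1.97 in NPC and 0.71 at D-2. After parturition it was 1.07 (D0), 1.31 (D3), 1.57 (D6) and then 2.81 (D12). For 17 of the 18 it was closer to 0 at D-2 than in NPC, against 59.5% of all genes, and the exception was *Il7* (0.22 in NPC and −0.42 at D-2). The list was chosen with earlier results of these data known. From these samples the paper reports lower cTEC levels at D-2 than in NPC for members such as *Psmb11*, *Prss16*, *Dll4* and *Ccl25*. The share of 17 of the 18 is therefore a description and not an independent test. *Psmb11* was at 2.06, 2.23, 1.76 and 4.96 from D0 to D12, and *Prss16* went from 3.40 in NPC to 1.81 at D-2 and 5.20 at D12. The junctional and basal list had a median of −0.99 in NPC and −0.54 at D-2, with 11 of 14 closer to 0 at D-2. The list of AIRE, FEZF2 and partners had −0.15 and −0.69, with 6 of 14 closer to 0, and the costimulation list had −2.59 and −2.65, with 5 of 12 closer to 0.

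Sets of genes chosen at other time points differed on whether D-2 was the lowest point on the cortical side. At D12, 745 genes were called higher in cTECs and 1088 higher in mTECs, together 9.96% of genes. The median difference of the 745 was 1.17 in NPC and 0.74 at D-2, and from D0 to D6 it was 0.94, 0.88 and 1.02. Of these genes 568 (76.2%) were closer to 0 at D-2 than in NPC. They kept their side, with 687 of the 745 positive at D-2 and 727 in NPC. The 1088 had medians of −2.45 in NPC and −2.06 at D-2, followed by −2.03, −1.42 and −2.89 from D0 to D6, with 716 (65.8%) closer to 0 at D-2 than in NPC, so that D3 and not D-2 was their lowest point. For the 215 genes called higher in cTECs at D6 the median was 1.41 in NPC and 0.93 at D-2, the lowest of the 6 time points, and 79.1% were closer to 0 at D-2 than in NPC. For the 169 called at D0 it was 1.47 in NPC, 1.30 at D-2 and 1.25 at D3, so that D-2 was not the lowest, and the share was 60.4%, near the 59.5% of all genes.

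Over all genes of the same fit, the median size of the difference was 0.557 at D-2 and 0.726 in NPC, and lay from 0.598 to 0.738 at the other 4 time points. Across the 9 pairings of a cTEC with an mTEC library, which share libraries, the SD of this median was 0.0929 at D-2 and 0.125 in NPC. The median SE of a difference was about the same at both, 0.738 at D-2 and 0.737 in NPC. Genes called were 348 at D-2 (1.89%), against 1029 in NPC (5.59%). The later counts were 558 on D0 (3.03%), then 282 (1.53%), 789 (4.29%) and, on D12, 1833 (9.96%). The median SE was 1.14 at D3 and 0.517 at D12, so their counts are not at equal precision. Log2 CPM values of cTEC and mTEC libraries at D-2 correlated across genes at 0.794 to 0.904, with the upper end inside the range between cTEC libraries, 0.899 to 0.927, and between mTEC libraries, 0.881 to 0.921. Each cTEC library correlated best with mTEC number 4, the deepest library (0.855, 0.904 and 0.897 for cTEC numbers 1, 3 and 4). The same correlations were not taken for NPC, so they do not show whether the cell types were closer at D-2.

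**Figure D5:**
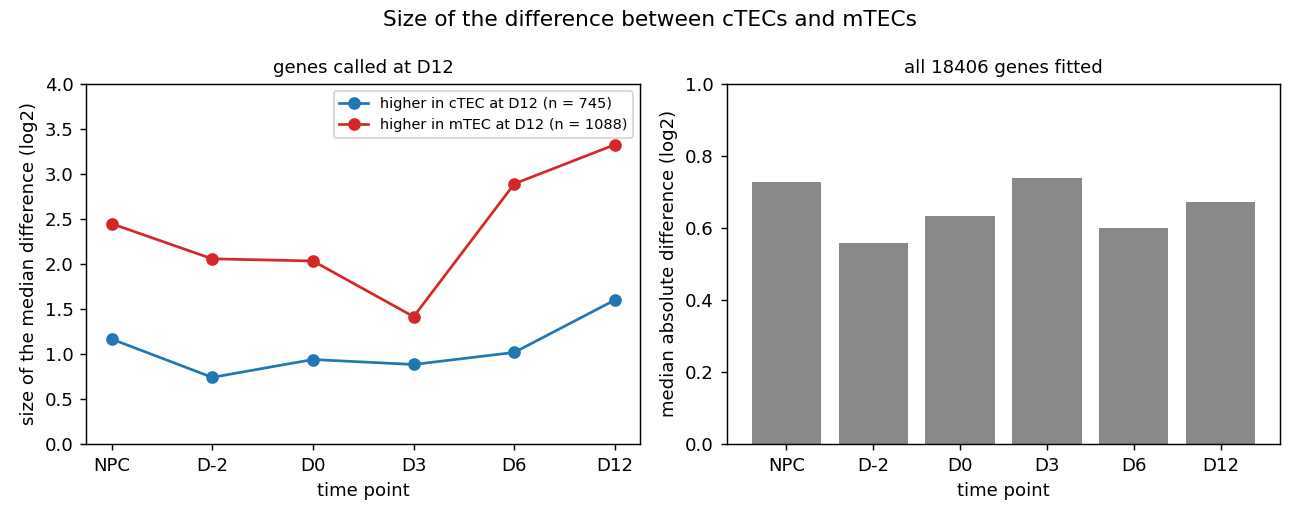
Left, the size of the median log2 difference (vertical) at 6 time points (horizontal) of the 745 genes higher in cTECs (blue) and the 1088 higher in mTECs (red) at D12. Right, the median size of the difference over all 18406 genes, as bars from 0, which is lowest at D-2, at 0.557.

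Between D-2 and D6, when regrowth is under way, a change of the difference was called for 1 of 18304 genes (0.00546%), *Fabp5*. This limma-voom fit held the 12 samples of D-2 and D6, the same D-2 samples as in the comparison with NPC. In simulated data it found 24.5% of 4-fold changes, and DESeq2 called 125 genes, so the count of 1 does not show that other genes were unchanged. *Fabp5* (ENSMUSG00000027533.10, chr3:10012548-10016607, plus strand), which encodes a fatty acid binding protein of epithelia, had 217, 212 and 153 FPKM in cTECs and 294, 393 and 297 FPKM in mTECs at D-2. Each cTEC was below each mTEC there, and the difference passed the adjusted p with a fold under 2 (log2 difference −0.77 ± 0.16 SE, adjusted p = 0.0016). At D6 it had 1496, 1922 and 2090.3 FPKM in cTECs and 517, 479 and 470.4 FPKM in mTECs, with every cTEC above every mTEC. The change was −2.60 ± 0.24 SE on the log2 scale, with an adjusted p of 1.6e-04 in limma-voom, and ranged from −2.75 to −2.46 when each library was left out in turn. In NPC the levels were 676, 1443 and 933 FPKM in cTECs and 567, 543 and 798 FPKM in mTECs. At an adjusted p of at most 0.05, 15 genes changed (0.0819%). An unadjusted p under 0.05 was reached by 2174 genes (11.9%), *Dll4* (change −2.38 ± 0.56 SE), *Cd83* (−2.20 ± 0.48 SE), *Ly75* (−1.42 ± 0.41 SE), *Spib* (1.69 ± 0.40 SE) and *Ccl21a* (1.44 ± 0.33 SE) among them, with adjusted p of 0.15, 0.13, 0.2, 0.15 and 0.14.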

How the data were processed

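The authors deposited, for each library, expected counts and FPKM per gene from RSEM (1.2.28). Reads had been trimmed with Trimmomatic (0.35) and aligned to GRCm38 with STAR (2.5.1b), per the submitters' processing notes. Gene positions and types were added here from GENCODE M21 gene models. Identifiers with a symbol were 50376 of 50600. A gene was tested where the mean FPKM of either cell type reached 0.5. Expected counts were rounded, normalised by TMM and tested with limma-voom (limma 3.58.1, edgeR 4.0.16, R 4.3.3), paired by title number at D-2 and unpaired for the changes of the difference, with a minimum fold of 2 and a maximum adjusted p (Benjamini-Hochberg) of 0.01. For 3 samples against 3 an exact test cannot go below 0.1, so p-values come from this fit over all genes. At D-2 with the block they measure the spread of the cTEC minus mTEC difference between title numbers. In fits without a block they measure the spread between samples of the same cell type and time point. With 8495657 to 48195568 counts per library at D-2, a gene without a count in 3 libraries was set at a floor of 3 counts, which covers counting error only. The fold then set the mean of the other cell type against that floor, without its spread. Tested on simulated data, the fit at D-2 recovered 46.5% of 200 genes changed 4-fold. edgeR and DESeq2 (1.42.0), other scalings, filters and pseudocounts, and leaving out samples were the alternatives. Named genes were the 6 markers, members of the gene lists, the 12 largest differences in each direction, and up to 5 called changes in each. The members and lists were chosen with earlier results of these data known. Some members of the lists are counted but not reported here by name.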

Additional observations from a re-analysis of the deposited data

Results flagged for a closer look

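*Fabp5* was flagged because the test of the change of its difference between cTECs and mTECs from D6 to D-2 passed the threshold. The D-2 difference minus the D6 difference was −2.60 on the log2 scale (0.24 SE, adjusted p = 1.6e-04 by limma-voom). All 3 cTECs were below all 3 mTECs at D-2 and above them at D6. Groups of 3 samples were too small to look for samples that stand apart.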

How the results depend on the processing

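At D-2 the 858 called genes (336 higher in cTECs, 522 in mTECs) became 550 without the title number as a block (312 higher in mTECs), 1463 with DESeq2 (1124 higher in mTECs) and 1514 at an adjusted p of at most 0.05 (1064 higher in mTECs). limma-trend on log2(FPKM + 0.5) gave 164 (49 and 115), a pseudocount of 0.1 gave 97 (30 and 67), and 1 fit over all 56 samples gave 320 (113 and 207). Leaving out the samples of 1 number gave 354 to 885 in all, 169 to 353 higher in cTECs and 185 to 532 in mTECs, and the lowest of each was without number 3. The causes were not tested, except that leaving out a number leaves fewer samples. With DESeq2 76.8% of calls were higher in mTECs, and with the settings of the report 60.8%. edgeR, sample quality weights, no TMM, other filters and libraries thinned to the smallest total, the last chosen after seeing the data, stayed within 1.5 times. Of the 84 named genes called, 0 reversed in any alternative, and 59 kept their call without the block, 82 with edgeR, 80 with DESeq2, 43 without number 3, 36 in the fit over all 56 samples, and 29 and 18 with limma-trend at pseudocounts of 0.5 and 0.1. Deviations of same-numbered cTEC and mTEC samples from their group means correlated at 0.008, 0.0589 and 0.0314 across genes, so the pairing by number is not seen over all genes. For the change between NPC and D-2, DESeq2 called 9 genes, and all other alternatives, the replicate block by duplicateCorrelation included, called 0. For that between D-2 and D6 it was 1 gene with the settings of the report, 2 with edgeR, 125 with DESeq2, 2 with sample quality weights and 15 at an adjusted p of at most 0.05. Leaving out each library gave 1 to 2 genes, and the 2 was without mTEC D6 number 2. The median size of the difference was 0.437 at D-2 and 0.963 in NPC with no filter, and leaving out each library gave 0.528 to 0.625 and 0.726 to 0.876, the last without mTEC NPC number 4. At these depths a fold of 4 was often missed: on simulated data with 200 genes changed 4-fold, limma-voom recovered 46.5% at D-2, 5% of changes against NPC and 24.5% of changes against D6.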

Other observations

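At an adjusted p of at most 0.05, 15 genes (0.0819%) had a different cTEC against mTEC difference at D-2 and D6, and they are named here after their values were seen. The genes with a larger cTEC excess, or smaller mTEC excess, at D-2 than at D6 included the collagen VI chains *Col6a1* (change 1.65 ± 0.27 SE) and *Col6a2* (1.64 ± 0.25), the amyloid precursor gene *App* (1.37 ± 0.21), glutamine synthetase *Glul* (1.48 ± 0.23), the actin-severing protein gene *Gsn* (1.72 ± 0.29), the secreted chaperone *Clu* (1.499 ± 0.27) and *Aldh3a1* (2.32 ± 0.41). Those that changed the other way were, with *Fabp5*, the fatty acid synthase gene *Fasn* (−2.06 ± 0.32), *Fgf14* (−1.99 ± 0.31), *Mreg* (−2.01 ± 0.36), *Nav2* (−1.75 ± 0.30), *Srsf11* (−1.36 ± 0.23) and *Usp15* (−1.31 ± 0.21). All 15 come from limma-voom with Benjamini-Hochberg adjustment.

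In the comparison with NPC the smallest unadjusted p was that of the splicing factor gene *Srsf11* (change −1.36 ± 0.26 SE, unadjusted p = 7.7e-05, adjusted p = 0.60 by limma-voom), and *Nav2* (−1.55 ± 0.31), *Zdhhc20* (−1.44 ± 0.32), *Klf7* (−1.67 ± 0.37) and *Arid4a* (−1.52 ± 0.34) were among the 10 smallest. These share the D-2 samples with the comparison against D6.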
